A study of Mus musculus with 12 samples.

Results

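The chromatin around 10 mouse genes was described: the oxygen-response genes Hif1a, Epas1, Egln1, Egln3, Vegfa and Pfkfb3 and the zinc-response genes Mt1, Mt2, Mtf1 and Slc30a1. The members are the ATAC-seq peaks that overlapped the span of 1 of these genes or lay within 20 kb of it, joined over libraries where they overlapped. They formed 222 regions among 291982 in the whole series, and 132 of them were kept in at least 3 libraries and were tested, among 138620 tested in all. Of the other 90 regions, 73 were kept in 1 library and 17 in 2; they were not tested. ATAC-seq marks open DNA, where a transposase can insert sequencing adapters, so the values describe accessibility and not the amount of RNA.

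The libraries came from mouse hepatocytes separated by collagenase perfusion of the liver, 1 library per mouse and 3 mice in each of 4 groups. All 12 mice carried floxed Fbxl5 alleles (FBXL5F/F, with recombination sites around part of the gene); the Fbxl5-deleted mice (Alb-Cre/FBXL5F/F) also carried Cre recombinase under the promoter of albumin, a gene of hepatocytes, and the controls carried no Cre. For 2 weeks the mice of each genotype ate standard chow or chow containing 0.1% DDC, a dihydrocollidine compound that disturbs heme synthesis, makes porphyrin build up and causes cholestasis. The design asks how chromatin accessibility differs between the genotypes in cholestatic liver; the sources used here do not give age, sex or strain background. The peak lists hold no reads, so the deletion itself was not checked.

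Hypoxia-inducible factors are transcription factors made of an oxygen-regulated alpha subunit, such as HIF-1alpha (Hif1a) or HIF-2alpha (Epas1), and a stable partner, ARNT. EGLN proteins use oxygen and iron to hydroxylate the alpha subunits, which marks them for degradation, and several EGLN genes are themselves targets of these factors. FBXL5 is the iron-sensing subunit of a ubiquitin ligase that degrades iron regulatory proteins, and those proteins bind the Epas1 messenger RNA. MTF1 is a zinc-sensing transcription factor that binds metal response elements at the genes of the zinc-binding metallothioneins MT1 and MT2 and of the zinc exporter ZnT1 (Slc30a1).

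A value is the within-library rank of a region's fold enrichment, expressed on the mean log2 distribution of fold enrichment over the 12 libraries. Equal numbers of peaks, the strongest 137034 of each list, were ranked. A region is called kept in a library where it was among them, and otherwise took the lowest value, 1.27, although the full list of that library may still hold a weaker peak there. Values of replicates 1, 2 and 3 are given in that order, differences are log2 ± SE from limma, and a region passed where the p adjusted over all tested regions was under 0.05. Full lists ran from 137034 to 262080 peaks. The longest came from replicates 1 and 3 of the Fbxl5-deleted mice on the standard diet (262080 and 260622, against at most 202912 elsewhere), which set these libraries apart. Strong peaks, those at or above 5 in −log10 q, numbered 46949 to 70517 in the 6 standard-diet libraries and 70044 to 86745 in the 6 DDC libraries; the part of this difference in the diet results was not tested. All 6 hepatocyte markers with a start in the promoter table (among them Alb and Hnf4a) had a region at their start in every library. Of 4 macrophage markers, Clec4f, Vsig4 and Marco had none in any library, and Cd68 had one in 2 of 3 standard-diet and 3 of 3 DDC controls and in 1 of 3 standard-diet and 3 of 3 DDC deleted mice, with group means from 1.36 to 1.57. The 3 lymphocyte markers had none in any library. Of 3 sinusoidal endothelial markers, Kdr had one in all 12 libraries and Stab2 and Clec4g in none. Among 4 cholangiocyte markers, Epcam and Spp1 had a start region in all 12 libraries, Krt7 in 2 and Cldn4 in none, and the mean over these markers was 2.13 to 2.38 in standard-diet libraries and 1.94 to 2.18 in DDC libraries. Among 4 stellate markers, Lrat and Reln had a region in all 12 libraries, Des in 3 and Acta2 in 1. The part of other cell types in the results was not tested, and in a pool of cells fewer cells with an open site cannot be told apart from less opening in each cell.

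The start regions of the 10 genes were open on both diets and in both genotypes. Of 11 start regions 1 passed, for DDC in floxed controls, where 7.04% of all tested regions passed. Pfkfb3 had a region at each of 2 annotated starts, which gave 11 start regions, and 10 of the 11 were kept in all 12 libraries. The exception, the Mt1 start, was kept in 11 and was held by all 12 full lists. Epas1 has no entry in the promoter table, so its strand is not known here and the more open end of the gene was taken as its start; its openness is therefore part of how it was chosen. The strongest start was that of the zinc sensor Mtf1, at chr4:124801954-124802779, with values between 4.05 and 4.40 in the 12 libraries and a mean of 4.26, at the 98.5th percentile of tested regions. Hif1a followed, at chr12:73907411-73908791, with a mean of 3.68 at the 90.8th percentile. Means between 3.10 and 3.30 were found at both Pfkfb3 starts, at the Egln1 start (chr8:124948085-124949976) and at the Egln3 start (chr12:54202980-54204190). Epas1 (chr17:86753135-86753871) and Slc30a1 (chr1:191905975-191907758) had means of 2.93 and 2.80. The weakest starts were those of Vegfa (chr17:46032178-46033008, mean 2.11), Mt2 (chr8:94172279-94173090, mean 2.05) and Mt1 (chr8:94178768-94179416, mean 1.83, at the 44.1st percentile). The 2 metallothionein starts therefore ranked near the middle of all tested regions, far below the start of their regulator Mtf1. A second annotated Vegfa start had no region within 1 kb.

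**Figure D1:**
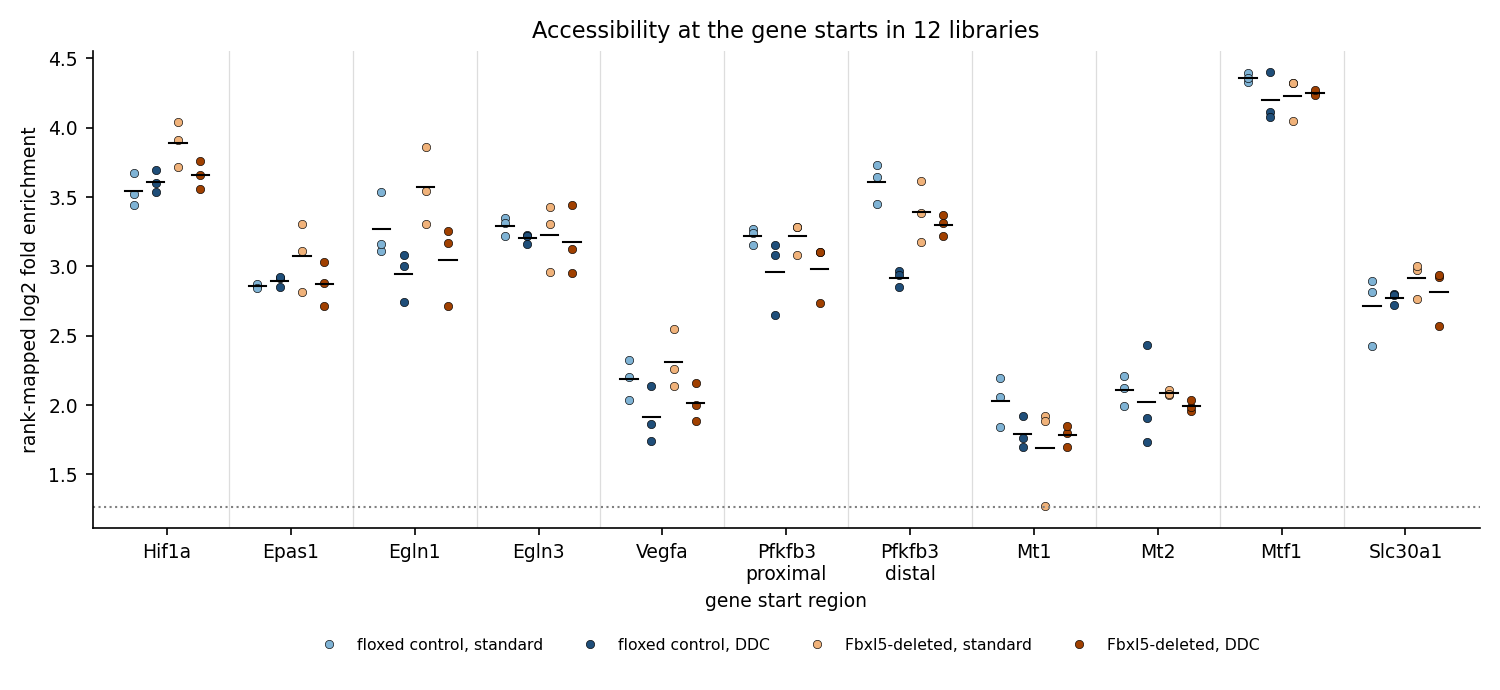
Values at the 11 gene start regions (rank-mapped log2 fold enrichment) in each of the 12 libraries; points are mice, bars are group means of 3, and the dotted line at 1.27 marks a region not kept. Mtf1 is highest and Mt1 lowest, and the distal Pfkfb3 start is the one whose floxed control groups were separated by diet with an adjusted p under 0.05.

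Of the 132 tested regions, 69 (52.3%) were kept in all 12 libraries, against 44.5% of all tested regions, and the median width was 529.5 bp against 470 bp. Epas1 had the most regions, 53 with 28 tested, and Pfkfb3 had 44 with 22 tested. Slc30a1 had the fewest, 11 with 8 tested. Mt1 and Mt2 lie next to each other on chromosome 8, so 10 of their 14 tested regions belong to both windows. The region with the highest mean was chr17:86795411-86796339 for Epas1 (mean 3.33, inside the gene). For Egln1 it was chr8:124896617-124898456 (3.235, 10131 bp downstream). For Pfkfb3 it was chr2:11464451-11465202 (4.01, 6228 bp downstream) and for Mt2 chr8:94152319-94152894 (3.315, 19724 bp upstream). A region outside the gene span may lie at a neighbouring gene. None of these highest regions passed in any comparison, and those of the other genes are given below.

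On DDC, 12 of the 132 member regions changed in floxed controls, 6 higher and 6 lower. The share was 9.09%, against 7.04% of all tested regions; in all regions 4.68% rose and 2.36% fell. The median difference was −0.07 over members and −0.01 over all regions. In Fbxl5-deleted mice 1 member region was lower on DDC and none higher (0.76%), against 3.18% of all tested regions, of which 2.43% rose and 0.75% fell; the median was −0.02 over members and 0.01 over all. Without Fbxl5-deleted standard-diet libraries 1 and 3 this count was 0, and it was 2 without control standard library 2, control DDC library 2 or Fbxl5-deleted standard library 3. In floxed controls the count fell to 7 without DDC library 2 and to 8 without standard library 2. The 12 regions belonged to Slc30a1 (3), Pfkfb3 (3), Egln3 (2), Egln1 (1), Epas1 (1) and the shared Mt1 and Mt2 window (2), and 6 of them lay inside a gene. None belonged to Hif1a, Vegfa or Mtf1. Values of the 2 diets did not overlap, in either direction, in 30 of the 132 members in controls, against 24.6% of all tested regions. In deleted mice this held for 29 of the 132 members, against 18.3% of all tested regions.

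**Figure D2:**
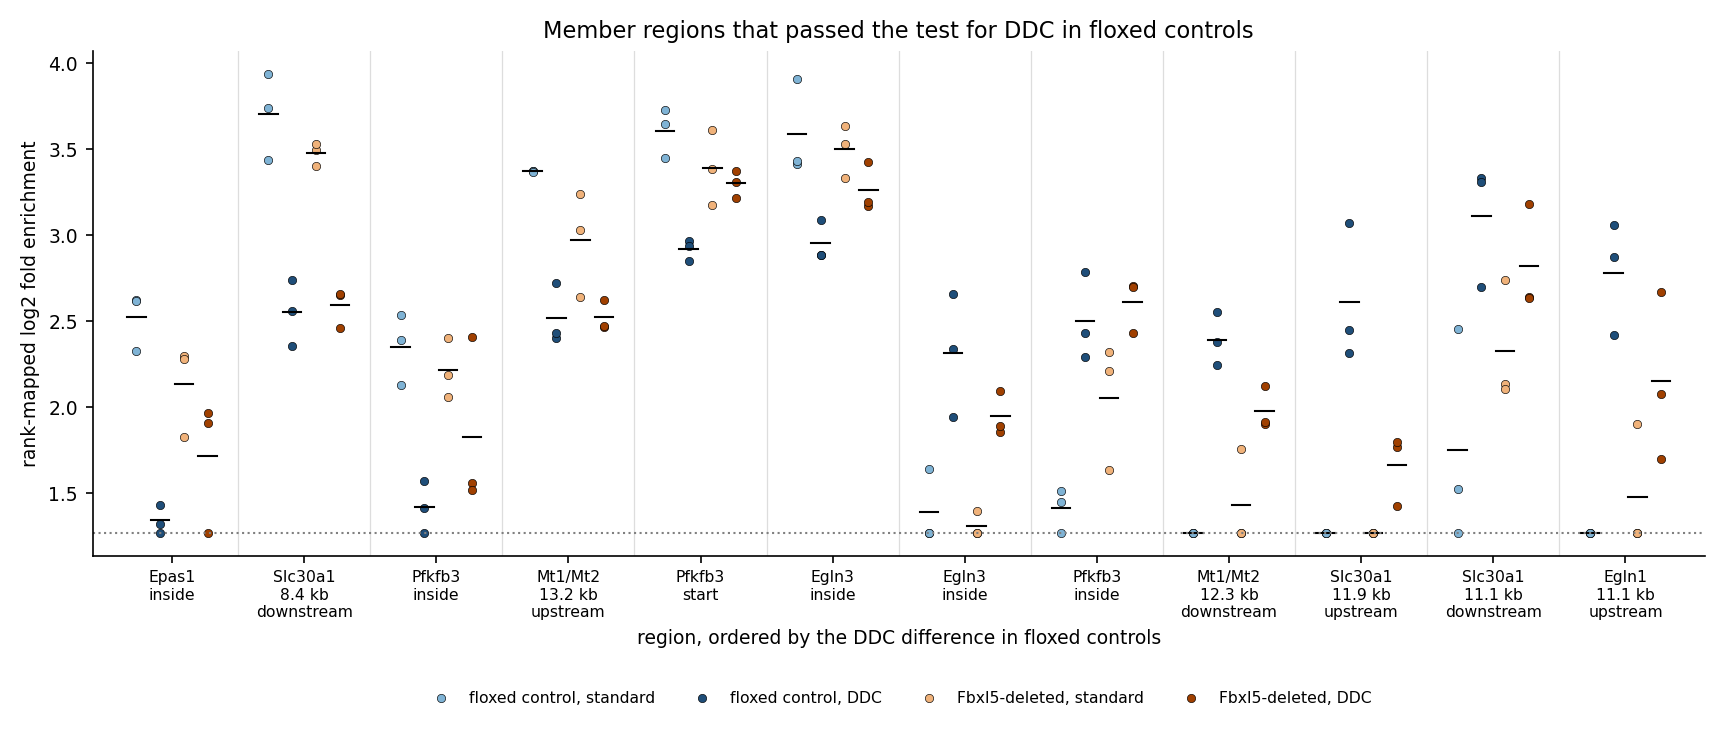
Values (rank-mapped log2 fold enrichment) of the 12 member regions that passed for DDC in floxed controls, in each of the 12 libraries; points are mice, bars are group means of 3, and the dotted line marks 1.27, the value of a region not kept. The 6 regions on the left are lower and the 6 on the right higher on DDC in floxed controls, and the means of the Fbxl5-deleted groups lie closer together in each.

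Hif1a, the oxygen-regulated subunit of HIF-1, had 12 tested regions, and none passed in any comparison. Its start had values of 3.44, 3.52 and 3.67 in standard-diet controls, 3.60, 3.53 and 3.69 in DDC controls, 4.04, 3.72 and 3.91 in Fbxl5-deleted mice on the standard diet and 3.76, 3.56 and 3.66 in Fbxl5-deleted mice on DDC. On the standard diet all 3 values of the deleted mice were above all 3 of the controls. Such a separation, in either direction, was found in 9.5% of all tested regions. The difference was 0.345 ± 0.136 with an unadjusted p of 0.0194 and an adjusted p of 0.508, so it did not pass. The lowest p in the Hif1a window belonged to chr12:73883430-73884740, 16584 bp upstream, at −0.588 ± 0.207 on DDC in Fbxl5-deleted mice (adjusted p = 0.134). The strongest region of the window, with a mean of 4.32, overlapped the neighbouring gene Snapc1.

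Epas1 encodes HIF-2alpha, and 1 of its 28 tested regions fell on DDC in floxed controls. Inside the gene at chr17:86775825-86776266, standard-diet controls had values of 2.62, 2.33 and 2.62, and DDC controls had 1.32, no kept peak and 1.43. The Fbxl5-deleted mice had 2.30, 2.28 and 1.83 on the standard diet and 1.96, 1.91 and no kept peak on DDC. The full lists of all 12 libraries held a peak there. In controls the diets did not overlap; in deleted mice they overlapped in part. The difference in controls was −1.18 ± 0.261 (adjusted p = 0.00816) and in deleted mice −0.421 ± 0.261 (adjusted p = 0.426). A neighbouring region, chr17:86776370-86776943, differed the other way in controls by 0.767 (adjusted p = 0.0752), and where peaks up to 500 bp apart were joined the value was 0.11 with an adjusted p of 0.845. The call was also lost with all deposited peaks (−0.80, adjusted p = 0.199) and with 50% reciprocal overlap (adjusted p = 0.066). Under that last setting the merge stayed the same, and a peak covering under 50% of its merged region counted as absent. The Epas1 start gave 2.86, 2.87 and 2.85 in standard-diet controls and 2.85, 2.91 and 2.93 in DDC controls, a difference of 0.038 ± 0.191 (adjusted p = 0.941). Over the whole window, 26, 30 and 31 Epas1 regions were kept in the standard-diet controls and 19, 21 and 23 in the DDC controls. Those 2 groups did not overlap, nor did they for Vegfa (15, 15 and 17 against 13, 13 and 14). For the other genes the counts of these groups overlapped or touched, with Slc30a1 at 5, 6 and 6 against 6, 7 and 9. How often such counts separate over all genes was not computed. In Fbxl5-deleted mice the Epas1 counts were 18, 24 and 25 on the standard diet and 19, 23 and 23 on DDC. These counts take in 25 of 53 Epas1 regions that were kept in under 3 libraries. The weakest kept peak had a fold enrichment of 1.38 to 2.46 in standard-diet controls and 2.59 to 2.84 in DDC controls. The part of this limit in the counts was not tested. The median difference of the tested Epas1 regions on DDC was −0.21 in controls and −0.06 in deleted mice.

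Egln1 encodes PHD2, the main oxygen-sensing hydroxylase of the alpha subunits in most cells, and 1 of its 10 tested regions rose on DDC in floxed controls. This region, chr8:124960397-124960848, lies 11143 bp upstream of the gene. It was kept in none of the 3 standard-diet controls, and absent from their full lists too, and kept in all 3 DDC controls, with values of 2.42, 3.06 and 2.87. In Fbxl5-deleted mice it was kept in 1 standard-diet library, at 1.90, and in all 3 DDC libraries, at 1.70, 2.08 and 2.67. The adjusted p was 0.00272 in controls, where the size of the difference is not defined because the region was absent from a whole group, and 0.227 in deleted mice (0.67 ± 0.288). With 50% reciprocal overlap the call was lost (adjusted p = 0.576). The Egln1 start itself differed by −0.327 ± 0.199 in controls (adjusted p = 0.37) and by −0.524 ± 0.199 in deleted mice (adjusted p = 0.168).

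Egln3 encodes PHD3, a hydroxylase whose gene is induced by hypoxia, and regions inside it moved in both directions on DDC in floxed controls. At chr12:54190989-54191600 the controls had 3.91, 3.42 and 3.43 on the standard diet and 2.89, 2.88 and 3.09 on DDC, and the deleted mice had 3.53, 3.33 and 3.63 against 3.17, 3.43 and 3.19. All DDC controls were below all standard-diet controls, and the deleted groups overlapped. The region fell by 0.634 ± 0.172 in controls (adjusted p = 0.029). At chr12:54187740-54188218, a weaker region, the controls had a kept peak in 1 standard-diet library, at 1.64, and values of 1.95, 2.66 and 2.34 on DDC. In deleted mice it was likewise kept in 1 standard-diet library, at 1.40, and had 1.85, 1.89 and 2.09 on DDC. The difference was 0.921 ± 0.245 in controls (adjusted p = 0.0256) and 0.635 ± 0.245 in deleted mice (adjusted p = 0.174). Both Egln3 calls were lost when single libraries were left out: the first without DDC control 1 (adjusted p = 0.0884), DDC control 2 (0.0977) or standard-diet control 1 (0.158), and the second without DDC control 2 (0.122), DDC control 3 (0.056), standard-diet control 1 (0.0903) or standard-diet control 2 (0.0976). Both were lost too with 50% reciprocal overlap (0.232 and 0.0838) and with no filter on regions (0.149 and 0.134), and the first also with all deposited peaks (0.236), with peaks up to 500 bp apart joined (0.154) and with ranks by −log10 p (0.0566). Between these regions and the gene start lies the strongest Egln3 region, chr12:54191720-54192558, with a mean of 3.62, which did not pass in any comparison. At the Egln3 start the difference was −0.09 ± 0.177 in controls (adjusted p = 0.827).

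Vegfa, the angiogenic growth factor gene and a classical HIF target, had 15 tested regions, and none passed. Its start had values of 2.04, 2.20 and 2.33 in standard-diet controls, 1.74, 1.86 and 2.14 in DDC controls, 2.55, 2.26 and 2.14 in deleted mice on the standard diet and 2.00, 2.16 and 1.88 in deleted mice on DDC. The diets overlapped in both genotypes, with differences of −0.277 ± 0.245 (adjusted p = 0.57) and −0.302 ± 0.245 (adjusted p = 0.556). The most open region of the window was not the start but chr17:46051326-46051856, 18949 bp upstream, with a mean of 3.52. The lowest p in the Vegfa window was at chr17:45998331-45998813, 18180 bp downstream, with −0.519 ± 0.231 in controls (adjusted p = 0.195).

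Pfkfb3 encodes a glycolytic enzyme that makes fructose 2,6-bisphosphate, the activator of phosphofructokinase, and it is another HIF target. Of its 22 tested regions, 1 rose and 2 fell on DDC in floxed controls, and 1 of those that fell covers the more upstream annotated start. That start region, chr2:11552374-11554135, had values of 3.45, 3.65 and 3.73 in standard-diet controls and 2.85, 2.97 and 2.94 in DDC controls. In Fbxl5-deleted mice it had 3.17, 3.39 and 3.61 on the standard diet and 3.31, 3.22 and 3.37 on DDC. The control groups were apart by more than their spread, while the DDC values of deleted mice lay within the range of their standard-diet values. The difference was −0.69 ± 0.163 in controls (adjusted p = 0.0124) and −0.091 ± 0.163 in deleted mice (adjusted p = 0.814). The test of the difference between the genotypes gave 0.599 ± 0.23 with an unadjusted p of 0.0168 and an adjusted p of 0.848, so a difference between genotypes was not shown. Without standard-diet control 2 or 3 the adjusted p in controls was 0.0501 or 0.0634, and with a 50% reciprocal overlap the value was 1.08 with an adjusted p of 0.32. It was also lost with no filter on regions (0.0784) and with all deposited peaks (0.117).

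The more downstream Pfkfb3 start, at chr2:11501061-11502505, differed on DDC by −0.257 ± 0.187 in controls (adjusted p = 0.472). Inside the gene at chr2:11513050-11513548, controls had no peak, 1.45 and 1.52 on the standard diet and 2.43, 2.78 and 2.29 on DDC, an increase of 1.09 ± 0.259 (adjusted p = 0.0127). Deleted mice had 2.21, 2.32 and 1.63 against 2.71, 2.70 and 2.43. The groups did not overlap in either genotype. Such a separation, in either direction, was found in 24.6% of all tested regions in controls and 18.3% in deleted mice. In deleted mice the difference of 0.557 ± 0.259 did not pass (adjusted p = 0.268). At chr2:11525938-11526573 controls had 2.54, 2.39 and 2.13 on the standard diet and 1.57, 1.41 and no kept peak (but one in the full list) on DDC, and deleted mice had 2.06, 2.19 and 2.40 against 2.41, 1.56 and 1.52. That region fell by 0.934 ± 0.272 in controls (adjusted p = 0.0411). That call was lost when any 1 of the 6 control libraries was left out (adjusted p between 0.0613 and 0.13), and also with 50% reciprocal overlap (0.116), no filter (0.186) or all deposited peaks (0.323). The rise at chr2:11513050-11513548 was lost without DDC control 2 (adjusted p = 0.0786), with 50% reciprocal overlap (0.327), with no filter (0.0693) and with only peaks of at least 5 in −log10 q, where the value was 0.07 (adjusted p = 0.715).

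The sequence at the distal Pfkfb3 start is shown because its region is the start region that passed. It covers chr2:11553880-11554179 on the minus strand, from 250 bases before to 50 after the annotated start (RefSeq, GRCm38.p6), with the hypoxia response element core ACGTG, searched on both strands, in capitals.
Pfkfb3 distal start: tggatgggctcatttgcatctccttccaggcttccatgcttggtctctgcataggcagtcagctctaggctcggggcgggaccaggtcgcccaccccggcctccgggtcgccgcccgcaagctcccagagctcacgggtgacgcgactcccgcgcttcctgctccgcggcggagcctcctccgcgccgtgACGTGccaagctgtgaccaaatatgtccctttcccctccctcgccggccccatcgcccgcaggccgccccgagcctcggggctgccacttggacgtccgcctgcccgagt
It holds 1 such core, and 19.6% of the 32851 promoter windows of this length in the table held at least 1. Of the 11 windows of 9 member genes in the table, the Hif1a window held 3 matches, of which a pair are both strands of the same palindrome, and the downstream Pfkfb3 window held 2, again both strands of 1 palindrome. The Egln1, Egln3, second Vegfa and Mt1 windows held 1 each. A match is only a match of letters.

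Mtf1, the zinc sensor, carried the most open member region. Inside the gene at chr4:124817555-124818176, values lay between 4.79 and 4.99 in all 12 libraries, and the region ranked between 10 and 76 among the 137034 kept peaks of each library. Its mean of 4.86 was above that of nearly every tested region, and it differed by −0.016 ± 0.078 on DDC in controls (adjusted p = 0.94). None of the 12 tested Mtf1 regions passed. The nearest was chr4:124809127-124810519, with 3.35, 3.59 and 3.41 in standard-diet controls and 3.16, 2.49 and 2.95 in DDC controls. Those groups did not overlap, as was found, in either direction, in 24.6% of all tested regions. The difference of −0.581 ± 0.198 had an adjusted p of 0.0824.

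Mt1 and Mt2, the metallothionein genes, did not change at their starts, but 1 region on each side of the pair changed on DDC in floxed controls. The Mt2 start had values of 1.99, 2.13 and 2.21 in standard-diet controls, 1.91, 1.73 and 2.43 in DDC controls, 2.07, 2.11 and 2.08 in Fbxl5-deleted mice on the standard diet and 1.96, 1.98 and 2.04 in Fbxl5-deleted mice on DDC. The Mt1 start had 2.20, 1.84 and 2.06 in standard-diet controls, 1.77, 1.92 and 1.70 in DDC controls, no kept peak, 1.92 and 1.88 in deleted mice on the standard diet and 1.80, 1.85 and 1.70 in deleted mice on DDC. The diets overlapped at both starts in both genotypes, except that Mt2 in deleted mice was lower on DDC by less than its SE. Differences on DDC in controls were −0.084 ± 0.248 for Mt2 (adjusted p = 0.893) and −0.237 ± 0.249 for Mt1 (adjusted p = 0.643).

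The promoter windows of Mt1 (chr8:94178839-94179138) and Mt2 (chr8:94172368-94172667), both on the plus strand, are shown because MTF1 is known to act through metal response elements at these genes. Capitals mark the metal response element core, TGCACNC or TGCGCNC, found on either strand.
Mt1: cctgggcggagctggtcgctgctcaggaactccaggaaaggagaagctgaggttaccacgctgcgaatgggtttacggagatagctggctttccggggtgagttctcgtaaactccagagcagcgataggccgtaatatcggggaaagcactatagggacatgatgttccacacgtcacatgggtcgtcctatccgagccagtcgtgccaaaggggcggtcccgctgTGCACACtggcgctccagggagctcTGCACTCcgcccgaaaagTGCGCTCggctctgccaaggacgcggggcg
Mt2: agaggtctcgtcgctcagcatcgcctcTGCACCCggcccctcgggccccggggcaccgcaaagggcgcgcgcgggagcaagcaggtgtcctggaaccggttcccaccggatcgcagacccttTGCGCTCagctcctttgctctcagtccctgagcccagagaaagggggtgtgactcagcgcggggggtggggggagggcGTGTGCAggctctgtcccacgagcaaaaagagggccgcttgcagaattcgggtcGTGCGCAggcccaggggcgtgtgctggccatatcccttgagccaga
Mt1 held 3 cores and Mt2 held 4. At least 3 cores were found in 1.97% of the promoter windows in the table and at least 4 in 0.52%, while 25.7% held at least 1. The overlapping ATAC-seq regions at these starts are the ones whose values are given above, so these windows were at a middling rank of accessibility on both diets.

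The region upstream of the pair, chr8:94164946-94165660, lies 6958 bp before Mt2 and 13223 bp before Mt1. Standard-diet controls had values of 3.38, 3.37 and 3.37 and DDC controls 2.40, 2.72 and 2.43. Fbxl5-deleted mice had 2.64, 3.03 and 3.24 on the standard diet and 2.62, 2.47 and 2.47 on DDC. The standard-diet controls were nearly equal to one another and above every other library. The region fell by 0.853 ± 0.204 in controls (adjusted p = 0.0133), and in deleted mice the difference was −0.45 ± 0.204 (adjusted p = 0.255). Without DDC control 1 the adjusted p in controls was 0.0524, and the call was also lost with 50% reciprocal overlap (0.217), no filter (0.0744) and all deposited peaks (0.148). The region 792 bp upstream of Mt2, chr8:94171169-94171826, differed the same way by −0.617 in controls (adjusted p = 0.0995) and did not pass. On the other side, chr8:94192645-94193028 lies 12318 bp downstream of Mt1. It was kept in none of the standard-diet controls (and held by 1 of their full lists) and in all 3 DDC controls, at 2.38, 2.55 and 2.24 (adjusted p = 0.0058, size not defined). In deleted mice it was kept in 1 standard-diet library, at 1.76, and in all 3 DDC libraries, at 2.12, 1.90 and 1.91, a difference of 0.549 ± 0.237 (adjusted p = 0.229). This call passed in every alternative that gave a value.

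Slc30a1, the gene of the zinc exporter ZnT1, had 3 of 8 tested regions changed on DDC in floxed controls, where 7.04% of all tested regions passed. These 3 regions lay on both sides of a start that did not pass. The start gave 2.90, 2.43 and 2.81 in standard-diet controls, 2.80, 2.79 and 2.72 in DDC controls, 2.98, 2.76 and 3.00 in deleted mice on the standard diet and 2.92, 2.57 and 2.94 in deleted mice on DDC. The diets overlapped in both genotypes, with differences of 0.062 ± 0.206 (adjusted p = 0.906) and −0.103 ± 0.206 (adjusted p = 0.835). The strongest region of the window, chr1:191921692-191922462, lies 8444 bp downstream of the gene. Its values were 3.44, 3.94 and 3.74 in standard-diet controls, 2.74, 2.56 and 2.36 in DDC controls, 3.40, 3.49 and 3.53 in deleted mice on the standard diet and 2.65, 2.66 and 2.46 in deleted mice on DDC. All 6 DDC libraries were below all 6 standard-diet libraries. In the authors' own fold enrichments the same region had 10.5, 15.83 and 14.05 in standard-diet controls and 7.16, 7.12 and 5.38 in DDC controls, and 8.04, 11.63 and 10.4 against 6.44, 6.79 and 5.45 in deleted mice. It fell by 1.15 ± 0.185 in controls (adjusted p = 0.000613) and by 0.884 ± 0.185 in deleted mice (adjusted p = 0.0102), which made it the 1 member region that passed in both genotypes. In controls it passed in every alternative. In deleted mice the call was lost without standard-diet libraries 1 and 3 together (−0.90, adjusted p = 0.141), with 50% reciprocal overlap (0.223) and with no filter on regions (0.0654).

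Next to it, chr1:191924318-191924997, 11070 bp downstream, moved the other way. Standard-diet controls had 1.52, no peak and 2.45, and DDC controls had 2.70, 3.33 and 3.31, an increase of 1.36 ± 0.302 (adjusted p = 0.00842). The diets did not overlap, although the standard-diet controls were widely spread, and without standard-diet control 2 or DDC control 2 the adjusted p was 0.0519 or 0.0537. The call was also lost with 50% reciprocal overlap (adjusted p = 0.13) and with only peaks of at least 5 in −log10 q, where the value was 0.52 (adjusted p = 0.09). Deleted mice had 2.74, 2.14 and 2.10 against 3.18, 2.64 and 2.63, a difference of 0.493 ± 0.302 (adjusted p = 0.419). On the upstream side, chr1:191894444-191894778, 11919 bp before the gene, was kept in none of the 6 standard-diet libraries and in all 6 DDC libraries. Its values on DDC were 2.45, 3.07 and 2.31 in controls and 1.77, 1.43 and 1.80 in deleted mice. Every deleted mouse was below every control on DDC, and 9.6% of all tested regions were separated in this way, in either direction. The diet test passed in controls (adjusted p = 0.00171) and not in deleted mice (adjusted p = 0.419). The comparison of the genotypes on DDC gave −0.947 ± 0.243 with an unadjusted p of 0.000842, the lowest of the members in that comparison, and an adjusted p of 0.358. The test of the difference between the diet effects had an unadjusted p of 0.0119 and an adjusted p of 0.848.

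**Figure D3:**
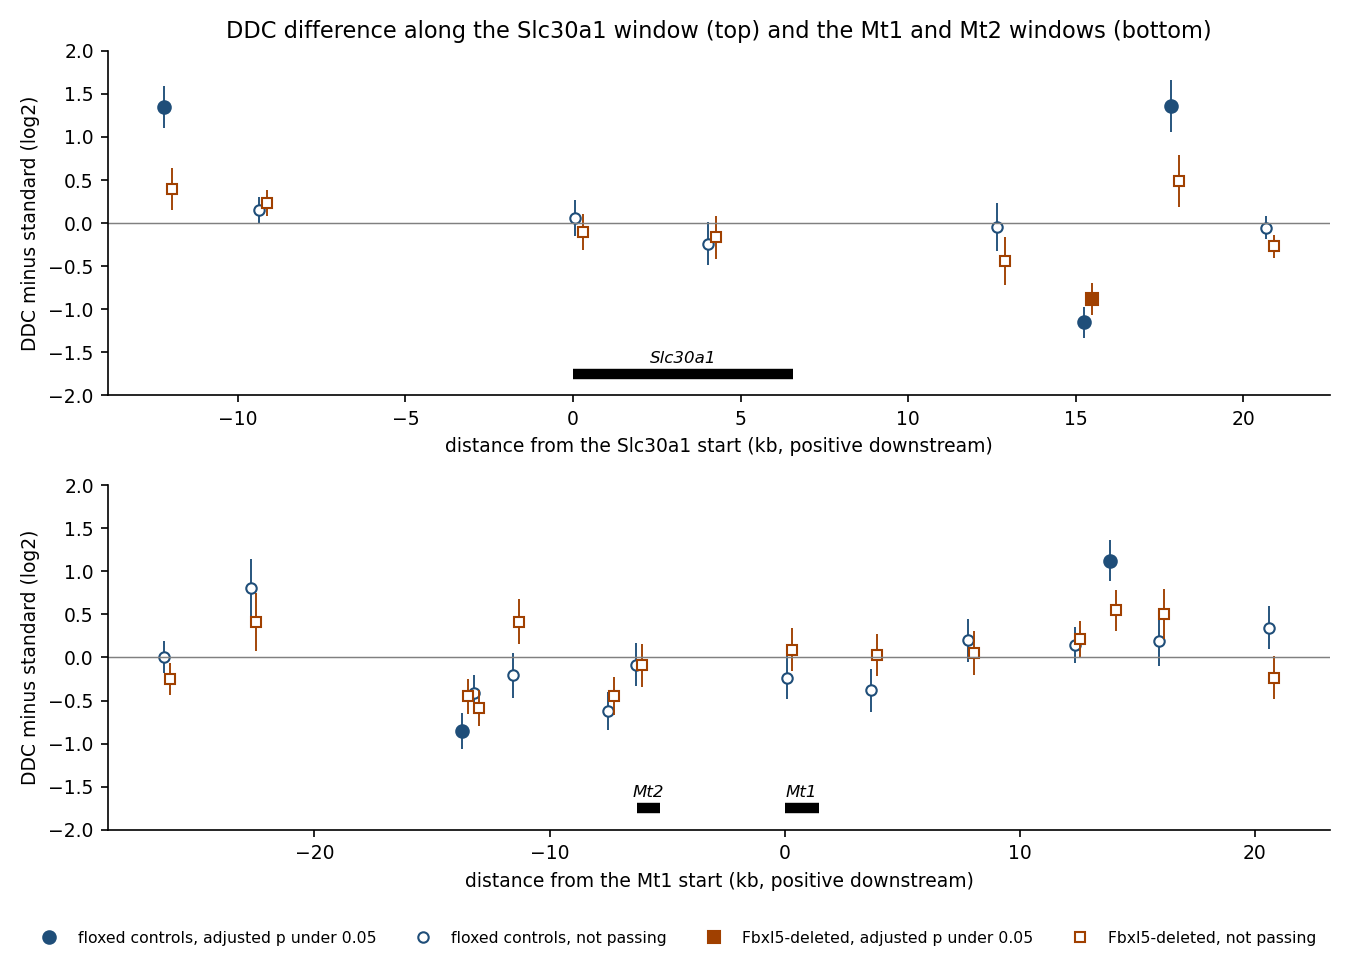
Difference between DDC and standard diet (log2, with SE bars) of every tested region along the Slc30a1 window and the Mt1 and Mt2 windows, against the distance of the region's centre from the Slc30a1 or Mt1 start in kb; circles are floxed controls, squares Fbxl5-deleted mice, and filled symbols passed with an adjusted p under 0.05. Points at the 3 gene starts lie between −0.24 and 0.09, and the filled points lie more than 6 kb outside the genes; where a region was absent from a whole group, its point has no true size.

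The Slc30a1 promoter window, chr1:191906531-191906830 on the plus strand, is shown beside those of the metallothionein genes because its gene is known to share their regulator. Capitals again mark the metal response element core.
Slc30a1: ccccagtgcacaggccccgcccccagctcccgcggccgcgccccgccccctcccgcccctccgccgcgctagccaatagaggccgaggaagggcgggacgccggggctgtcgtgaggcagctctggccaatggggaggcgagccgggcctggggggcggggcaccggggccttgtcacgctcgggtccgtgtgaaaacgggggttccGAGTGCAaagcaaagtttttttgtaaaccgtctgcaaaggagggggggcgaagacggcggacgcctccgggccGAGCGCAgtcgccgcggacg
It held 2 cores. The Egln1 window, with 86.0% G and C, held 3 cores, of which a pair overlap each other. The Mtf1 window held neither a metal nor a hypoxia core.

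Between the genotypes no member region passed. On the standard diet the lowest adjusted p of a member was 0.415, at chr17:86832612-86833124 at the far end of Epas1 (−0.894 ± 0.302), and 9 of 132 members (6.8%) had an unadjusted p under 0.05 against 8.1% of all regions. In the whole series 0.000721% of regions passed, which is 1 region. On DDC the lowest was 0.358, at the upstream Slc30a1 region described above, with 5 members (3.8%) at an unadjusted p under 0.05 against 5.9% of all, and 0% of all regions passed. For the difference of the diet effects the lowest was 0.848, with 6 members (4.5%) at an unadjusted p under 0.05 against 5.9% of all, and 0% passed. The diet comparisons of the 2 genotypes share no library, and all 12 regions that passed in controls had the same direction in deleted mice, as did 92.0% of all regions that passed in controls. Of the 12 regions, 3 were absent from a whole control group and have no true size there. The other 9 differences were all smaller in deleted mice, as were 85.9% of the 6824 such regions of the series. Their median size was 0.93 in controls and 0.45 in deleted mice, against 1.06 and 0.69 over the 6824. The regions were picked by the test in controls, so the sizes in the 2 genotypes are not an even comparison. In deleted mice 1 of the 12 (8.3%) passed too, against 27.4% of all.

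**Figure D4:**
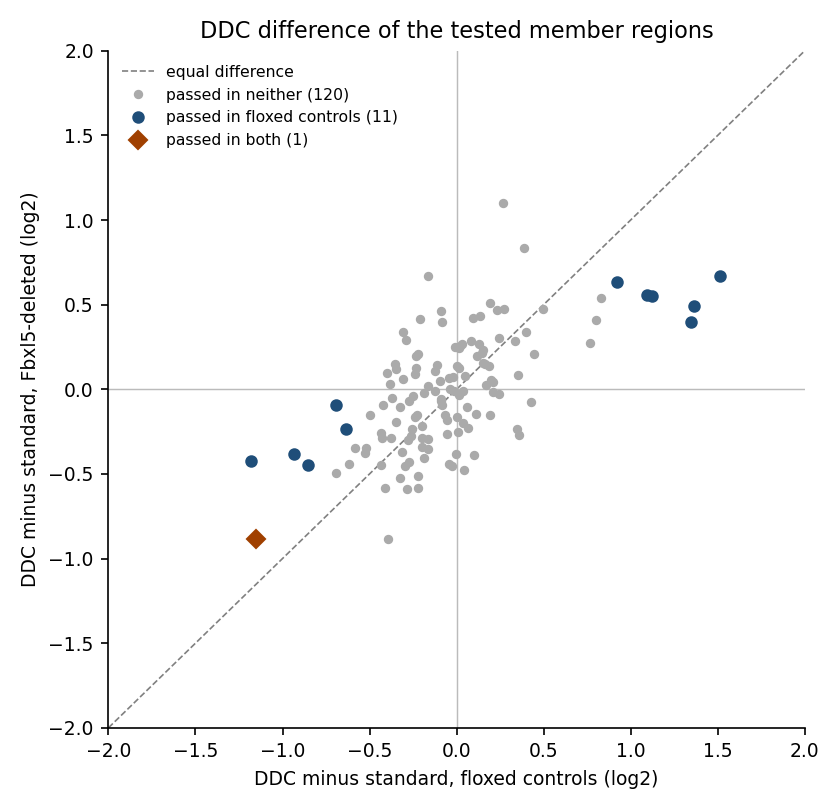
Difference between DDC and standard diet (log2) of the 132 tested member regions in floxed controls (horizontal axis) and Fbxl5-deleted mice (vertical axis); filled blue points passed in controls alone, the diamond passed in both genotypes, grey points in neither, and the dashed line marks equal differences. The 12 regions that passed in controls lie on the same side of 0 in both genotypes and closer to 0 in Fbxl5-deleted mice; 3 of the 12, absent from a whole control group, have no true size.

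Other genes of these pathways, 42 in all, were counted in the same way over 407 tested regions. They included other HIF subunits and regulators (Hif3a, Arnt, Vhl), HIF targets of glycolysis and hypoxia (such as Hk2 and Slc2a1) and zinc and copper transporters (such as Slc39a14). On DDC 8 regions rose and 7 fell in floxed controls (3.69%, against 7.04% of all regions), and 2 rose and 2 fell in deleted mice (0.98%, against 3.18%). Medians were −0.02 and −0.06, and no region passed between genotypes or for the difference of the diet effects. Each value that follows is of 1 region near the gene, not of the gene as a whole. In controls the largest increases were at Pfkfb4, a paralogue of Pfkfb3 (chr9:109027455-109027968, 1.46 ± 0.244, adjusted p = 0.000905), at the histone demethylase gene Kdm3a (1.19 ± 0.284, adjusted p = 0.0137) and at Hif3a (1.15 ± 0.27, adjusted p = 0.0125). Regions that fell included those at Arnt, the partner of the alpha subunits (−1.10 ± 0.291, adjusted p = 0.0252), and at Ankrd37 (−1.07 ± 0.25, adjusted p = 0.0116). Another Arnt region, chr3:95511786-95512141, rose in controls (adjusted p = 0.0394). It was kept in none of the standard-diet controls and in all 3 DDC controls. In deleted mice 1 of 7 tested regions of the hexokinase gene Hk2 rose, by 1.32 ± 0.324 (adjusted p = 0.028), and 1 of 16 of the glucose transporter gene Slc2a1, by 1.07 ± 0.284 (adjusted p = 0.0413). There 1 of 27 regions of the zinc importer gene Slc39a14 fell by 0.728 ± 0.198 (adjusted p = 0.0468), and 1 of 10 of the prolyl hydroxylase subunit gene P4ha2 fell by 0.594 ± 0.128 (adjusted p = 0.0128). The same Slc2a1 and P4ha2 regions also passed in controls, at 1.06 ± 0.284 (adjusted p = 0.0262) and −0.61 ± 0.128 (adjusted p = 0.00574). In controls 2 other P4ha2 regions rose.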

How the data were processed

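Peaks were deposited per library for 12 mice, so replicates were not pooled. The submitters' processing notes name MACS2, Bowtie2, fastp, Picard, SAMtools, deepTools and bedtools and the build mm10. Their settings are not stated there, nor whether reads were shifted for the transposase. In the deposited lists the fold enrichment is a ratio of peak height over background within a library. The peak caller's −log10 q, −log10 p and score are also deposited, and the smallest −log10 p in the deposited lists corresponds to a p-value of 0.05. Summits were left out. Depth is known only through the peaks, since reads were not counted in the lists.

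Peaks of the autosomes, X and Y were ranked by fold enrichment, the strongest 137034 kept in each library, and kept peaks sharing at least 1 bp were merged (bedtools 2.31.1). For replicates 1 and 3 of the deleted mice on the standard diet the weakest kept peaks had a fold enrichment of 2.45 and 2.29, the median of the whole list, and were chosen among ties. Ties were broken by −log10 p and then by chromosome name and position. The part of this order in the presence and values of weak regions was not tested. Ranks were mapped to the mean log2 distribution, with 1.27 for absence; a change common to all regions is not visible. Limma 3.58.1 (R 4.3.3; lmFit, eBayes with trend and robust settings) was fitted on all 12 libraries with 4 group means, two-sided, Benjamini-Hochberg over 138620 regions, and tested on simulated data. Gene spans (without strand) and promoter windows come from RefSeq tables of GRCm38.p6, the assembly of mm10; whether a region is exonic is not known here. All 10 genes had a span and 9 had promoter windows, 11 in all, from which strand was taken. Python 3.11.15, numpy 2.4.6, pandas 2.3.3 and matplotlib 3.10.9 were used.

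The members, the gene lists and the tests were chosen with earlier results of these data known. Named regions are, for every gene, the region at each start, the region with the highest mean, every region with an adjusted p under 0.05 and, where none passed, the one with the lowest p; of other pathway genes, the 3 largest changes in each direction and diet comparison, of which 1 is not reported here. The alternatives tried were other ranks, peak thresholds, region filters, merges and windows, a replicate block, each library left out, and eBayes without its trend and robust settings. The labels give no batch.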

Additional observations from a re-analysis of the deposited data

How the results depend on the processing

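Counts of called regions moved with the processing. The setting called 50% reciprocal overlap left the merge unchanged and set peaks covering under 50% of their merged region to absence. Its counts, lost calls and reversal therefore include libraries that held a peak there. For DDC in floxed controls (9752 regions, 12 members) the counts were 5185 and 3 with 50% reciprocal overlap, 3373 and 6 with no filter on regions, and 4375 and 4 with only peaks of −log10 q of at least 5; 6 members passed within the gene spans alone. For DDC in Fbxl5-deleted mice (4412 regions, 1 member) they were 1326 and 0 with 50% reciprocal overlap, 1233 and 0 with no filter, 1209 and 0 when replicates 1 and 3 of the deleted mice on the standard diet were left out together, and 2481 regions with the −log10 q limit. There 0 members passed within the spans, 3 within 50 kb, 3 with ranks by −log10 p, and 2 with regions in at least 6 libraries. For the genotypes on the standard diet (1 region) the count was 153 with 50% reciprocal overlap, 141 with all deposited peaks, 9 with the −log10 q limit, and 0 with no filter, with ranks by −log10 p, with the replicate block and without the pair of libraries. On DDC (0 regions) it was 254 with 50% reciprocal overlap and 1 with ranks by −log10 p, and for the difference of the diet effects (0 regions) it was 74 with 50% reciprocal overlap. Member counts in these 3 comparisons stayed at 0.

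Leaving out single libraries gave 4965 to 10491 regions and 7 to 13 members for DDC in controls, 2079 to 4002 regions and 1 to 2 members for DDC in deleted mice, 0 to 89 for the genotypes on the standard diet (89 without Fbxl5-deleted library 2), 0 to 1 for the genotypes on DDC and 0 to 0 for the difference of the diet effects. The lowest count in controls, 4965, was without DDC library 2; 6369 remained without DDC library 1, 5790 without standard library 2 and 5724 without standard library 3. In deleted mice it was 2079, 2677 and 2619 without DDC library 2, 1 and 3.

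The replicate numbers did not pair the libraries (correlations of same-numbered deviations between −0.024 and 0.057). With the replicate block 9387 regions and 12 members passed in controls and 4165 regions and 2 members in deleted mice.

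Of 280 alternative values of the 13 called member differences, 233 kept their direction and call, 45 kept the direction without passing, and 2 reversed: the Epas1 region at 0.11 with peaks up to 500 bp apart merged, a setting chosen after seeing the data, and the distal Pfkfb3 start at 1.08 with 50% reciprocal overlap. Of the 13 calls, 50% reciprocal overlap ended 10, no filter on regions 7 and all deposited peaks 5. Epas1, Egln1 and 4 further regions gave no value under the −log10 q limit. The cause was not tested. The lists hold no reads, so what depth limits was not tested. In the main setting absence is set by the number of peaks kept.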
